A study of Mus musculus with 6 samples.

Results

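Annexins and S100 proteins are 2 families of calcium-binding proteins that often act together. An annexin binds calcium and acidic phospholipids, so that it is drawn to membranes when calcium rises. There it takes part in membrane repair, trafficking and the handling of inflammation. An S100 protein is a small EF-hand protein that usually works as a dimer, changes shape on binding calcium and then grips a partner, in several cases the amino-terminal tail of an annexin. In the kidney these genes are studied because injured tubules, recruited leukocytes and activated fibroblasts are known to make more of some of them.

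A set of 10 such genes was examined, chosen by symbol for their ties to injury and inflammation, out of 23276 gene symbols listed for these kidneys. They were 4 annexins (*Anxa1*, *Anxa2*, *Anxa3* and *Anxa5*) and 6 S100 genes (*S100a4*, *S100a6*, *S100a8*, *S100a9*, *S100a10* and *S100a11*). All 10 were found, in 12 of the 54721 transcript rows. Each of the 10 symbols has 1 place in the genome annotation.

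Total RNA of whole kidneys from 6 mice was sequenced at postnatal day 22. In 3 mice, *Pkd1* F/RC SKO, Ksp/Cre had acted on a floxed *Pkd1* allele opposite the hypomorphic RC allele. The 3 *Pkd1* F/RC DKO mice carried the same *Pkd1* alleles and Cre and were also homozygous for a floxed miR-17~92 cluster. Ksp/Cre acts in kidney tubules, whereas the RC allele is carried in every cell, so the miRNA cluster was not targeted outside the tubules. No kidney without a *Pkd1* mutation is among the 6.

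The only measurement used here is the mean abundance of each transcript over these libraries, in counts scaled to the library size (CPM) and deposited by the authors on a log2 scale. Both genotypes enter each mean, with no value for a single kidney. The spread between kidneys, the depth of each library and the effect of removing miR-17~92 are therefore not given, and the fold changes and p-values of the authors' own comparison were not used. Every level that follows describes the 2 genotypes together, with no error and no test, and whether 2 levels differ beyond the spread between kidneys was not tested. The recombined loci could likewise not be checked kidney by kidney. The mean was 31.8 CPM for *Pkd1* and 4.21 CPM for *Mir17hg*, the host transcript of the cluster. In whole tissue, fewer cells of a type and less RNA per cell cannot be told apart.

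The levels matched a kidney in their main markers. *Slc34a1*, the phosphate carrier of the proximal tubule, stood at 1030 CPM and *Umod*, the uromodulin gene of the thick ascending limb, at 1022 CPM. All markers listed for proximal tubule, thick ascending limb, distal convoluted tubule, collecting duct, intercalated cells, podocytes, endothelium and fibroblasts were at or above 1 CPM, as were the 3 of red blood cells (20.1 to 72.9 CPM). Those of skeletal muscle lay between 0.0263 and 0.0890 CPM. The value 0.0263 CPM is the lowest listed and is shared by 4617 rows. A value at or close to it shows only that a transcript had few or no reads.

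Of the 10 genes, 8 had a mean of at least 1 CPM, against 55.9% of all gene symbols. Their median was 24.0 CPM beside 2.36 CPM over all symbols. The genes covered a wide range, from 0.310 CPM for *S100a8* to 118.5 CPM for *S100a11*, a ratio of 382. All 4 annexins lay within 19.6 to 96.1 CPM, and the whole width of the range came from the S100 genes.

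**Figure D1:**
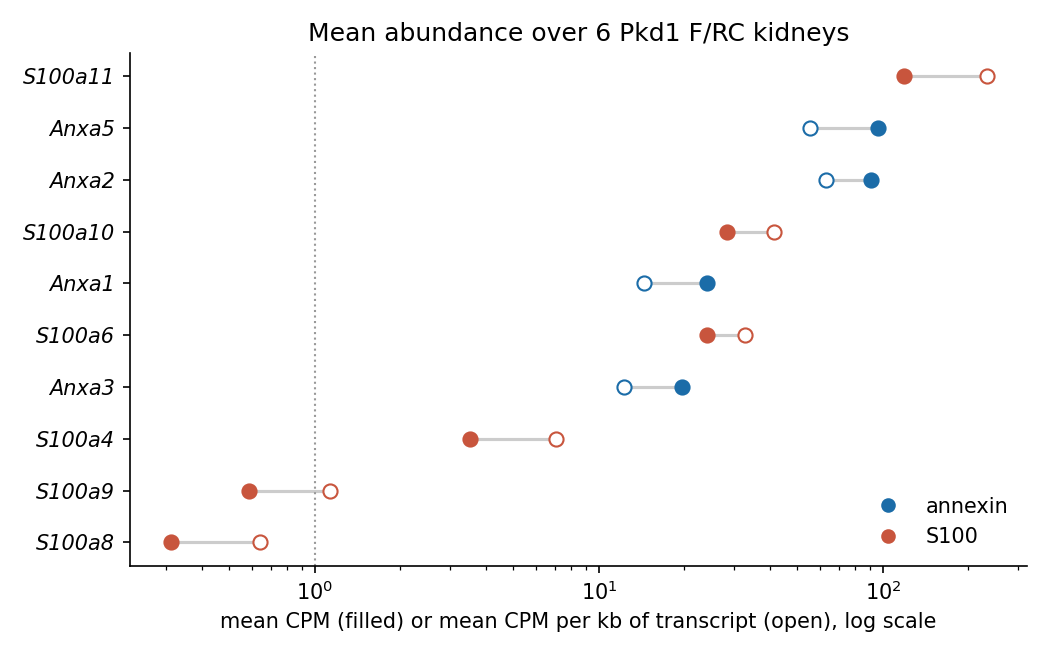
Mean abundance of the 10 genes over all 6 kidneys, as mean CPM (filled points) and as mean CPM per kilobase of the annotated transcript (open points), both on a log axis, with annexins in blue, S100 genes in red and a dotted line at 1. *S100a11* is highest on both scales and *S100a8* and *S100a9* are lowest, and there are no error bars because no value of a single kidney was available.

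Placed among all symbols, *S100a11* had more CPM than 98.1% of the others, with 452 symbols above it. *Anxa5* and *Anxa2* followed at the 97.3 and 97.1 percentiles. *S100a10*, *Anxa1*, *S100a6* and *Anxa3* formed a middle group between the 79.9 and 85.9 percentiles. By CPM, *S100a4* stood near the middle of all symbols, at the 53.7 percentile, and *S100a9* and *S100a8* below it, at 41.2 and 37.6. The median percentile of the 10 genes was 83.3. These ranks are before any division by transcript length, which moves the short S100 transcripts up.

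**Figure D2:**
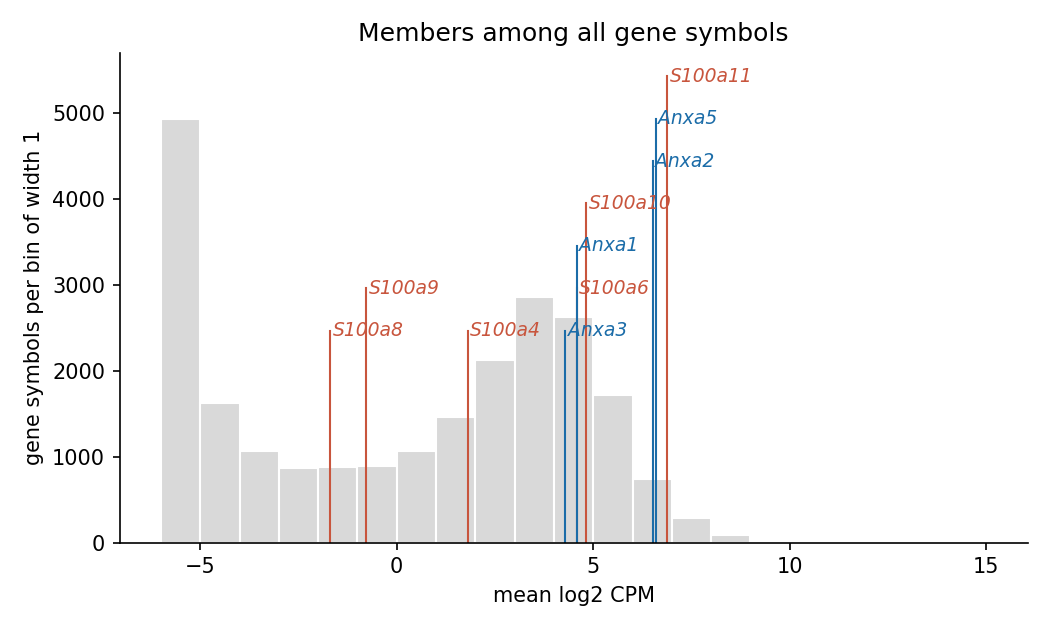
Number of gene symbols (y axis) by mean log2 CPM of their most abundant transcript (x axis, bins of width 1), with a vertical line at each of the 10 genes, annexins in blue and S100 genes in red. The heights of the lines only separate the names. The tall bin on the left holds symbols at or near the lowest value of the table, 0.0263 CPM, and 7 of the 10 lines crowd between *Anxa3* at 4.29 and *S100a11* at 6.89.

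A long transcript collects more reads than a short one at the same number of molecules, so levels of different genes are compared below per kilobase, and CPM values are given beside them as the level of each gene. The annexin transcripts have 13 exons each and 1447 to 1731 nucleotides, and encode 319 to 346 residues. The S100 transcripts have 3 exons each and 486 to 731 nucleotides, and encode 89 to 113 residues. Division by length therefore raised the S100 genes relative to the annexins. Per kilobase the order was *S100a11*, *Anxa2*, *Anxa5*, *S100a10*, *S100a6*, *Anxa1*, *Anxa3*, *S100a4*, *S100a9* and *S100a8*. Compared with the order by CPM, *Anxa2* changed places with *Anxa5* and *S100a6* with *Anxa1*. The ratio of the highest to the lowest gene was 363 per kilobase. The percentiles moved as well when taken per kilobase among symbols with a length. *S100a4* then stood at 80.4, *S100a6* at 96.0 and *S100a10* at 96.9. *Anxa3* and *Anxa1* stood at 88.6 and 90.3, and *Anxa5* and *Anxa2* at 97.8 and 98.1. *S100a8* and *S100a9* stayed lowest, at 41.7 and 47.2.

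*Anxa2* encodes the annexin that joins membranes to the actin skeleton and, with its S100 partner, binds plasminogen and its activator at the cell surface. In mm10, whose coordinates are used throughout, the gene spans 69453620 to 69491795 of chromosome 9 (forward strand). Its level was 91.1 CPM, and per kilobase 63.0 CPM, the highest among the annexins. The table lists a second, assembled transcript of *Anxa2*, also at 91.1 CPM, which differed by 2.14e-05 on the log2 scale. Whether the same reads were counted for both is not given in the sources used here, and the rows were not added.

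*S100a10*, also known as p11, is the partner of *Anxa2*. Unlike most S100 proteins it no longer binds calcium and holds the annexin in a fixed complex. The gene spans 93555080 to 93564643 of chromosome 3 (forward strand), and its level was 28.2 CPM or 41.2 CPM per kilobase. Per kilobase, *Anxa2* was 1.53 times as abundant as *S100a10*, so the transcripts of the 2 partners stood closer to each other than the ratio of 3.22 in CPM shows. *Ahnak*, a giant scaffold protein that binds this complex, was at 211.5 CPM and 11.7 CPM per kilobase. *Plat*, the tissue plasminogen activator, was at 17.3 CPM per kilobase, and *Plg*, plasminogen, which the liver supplies, at 0.144 CPM per kilobase.

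*Anxa5*, known as the reagent that marks phosphatidylserine on dying cells, lies on the reverse strand of chromosome 3 from 36448923 to 36475894. It was at 96.1 CPM and 55.5 CPM per kilobase, 0.882 times the level of *Anxa2* per kilobase. *Anxa1* encodes a glucocorticoid-induced protein that acts on formyl peptide receptors and helps to end inflammation. The gene spans 20373428 to 20390944 of chromosome 19 (reverse strand) and was at 24.1 CPM, or 14.4 CPM per kilobase. Its receptors were far lower, with *Fpr1* at 0.0627 CPM per kilobase and *Fpr2* at 0.115 CPM per kilobase. *Pla2g4a*, the cytosolic phospholipase whose activity annexin A1 is known to restrain, was at 21.1 CPM and 7.39 CPM per kilobase. *Anxa3*, on the forward strand of chromosome 5 from 96793339 to 96845966, was the lowest of the 4 annexins, at 19.6 CPM and 12.3 CPM per kilobase. *Anxa2* was 5.13 times as abundant per kilobase. *Dysf*, the dysferlin gene, whose protein works with annexins in membrane repair, was at 2.09 CPM per kilobase.

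*S100a11* encodes a calcium sensor that binds the tail of annexin A1 and annexin A2 and is recruited in membrane repair. The gene spans 93520488 to 93526287 of chromosome 3 (forward strand). At 231.9 CPM per kilobase it lay above 99.7% of the symbols with a length. It was 16.1 times as abundant per kilobase as *Anxa1* and 3.68 times as abundant as *Anxa2*, its other partner here. Per kilobase both ratios were wider than the 1.53 between *Anxa2* and *S100a10*. In CPM the ratio of *S100a11* to *Anxa2* was 1.30, narrower than the 3.22 between *Anxa2* and *S100a10*. The ratio of *S100a11* to *Anxa1* was still wider, at 4.92. *S100a11* was also 5.62 times as abundant per kilobase as *S100a10*.

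*S100a6*, or calcyclin, named for its change over the cell cycle in cultured cells, lies on the forward strand of chromosome 3 from 90612882 to 90624181. It had an assembled transcript at 24.0 CPM and a RefSeq transcript at 23.8 CPM, which differed by 0.00916 on the log2 scale. Per kilobase of the RefSeq transcript it was at 32.6 CPM, 0.791 times the level of *S100a10*. *S100a4*, also known as fibroblast-specific protein although leukocytes make it as well, lies between 90603771 and 90606045 on the same strand. It was at 3.51 CPM and 7.05 CPM per kilobase, so that *S100a6* was 4.63 times as abundant. The fibroblast markers of the same kidneys, *Col1a1*, *Col3a1*, *Pdgfrb* and *Dcn*, lay between 8.28 and 55.3 CPM per kilobase, all above *S100a4*. Of the macrophage markers with a length, *C1qa* and *C1qb* were at 8.49 and 8.25 CPM per kilobase, slightly above *S100a4*, and *Csf1r* and *Emr1* at 6.24 and 1.39 CPM per kilobase, below it. *Cd68*, with no matched length, was at 5.19 CPM.

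*S100a8* and *S100a9* encode the 2 chains of calprotectin, the protein that neutrophils and monocytes store in bulk and release as an alarm signal. *S100a8* lies on the forward strand of chromosome 3 from 90668978 to 90670035 and *S100a9* on the reverse strand from 90692632 to 90695721. Their levels were 0.310 CPM and 0.586 CPM, the only ones of the 10 below 1 CPM, yet above the lowest value of the table, 0.0263 CPM. Per kilobase, *S100a9* was 1.77 times as abundant as *S100a8*, and *S100a10* was 36.5 times as abundant as *S100a9*. Neutrophil markers were also low. Of 8 in the list 7 were found by symbol, and only the receptor gene *Csf3r*, at 1.07 CPM, reached 1 CPM. The granule genes *Mpo*, *Elane*, *Camp*, *Ltf* and *Ngp* and the secreted *Retnlg* lay between 0.0278 and 0.146 CPM. *Camp*, *Mpo* and *Elane* were close to the lowest listed value. Per kilobase the 7 markers summed to 0.630 CPM and the calprotectin genes to 1.77 CPM, with the lowest listed value not taken off. Without division by length the order was the opposite, with sums of 1.45 and 0.897 CPM, and the part of neutrophils in these levels was not tested. Of the receptors of calprotectin, *Tlr4* was at 1.43 CPM per kilobase of its RefSeq mRNA. That mRNA had 5.85 CPM, and the highest row of *Tlr4*, another transcript, 9.28 CPM. *Ager* is more uncertain, because its highest row, at 18.5 CPM, was not a RefSeq mRNA. The highest RefSeq mRNA among its 12 rows had 0.646 CPM. *Lcn2*, a secreted marker of tubule injury that neutrophil granules also hold, was at 46.9 CPM and 51.3 CPM per kilobase.

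The other members of both families show where the 10 genes stand. Of 18 further annexin and S100 genes, all listed, 11 were at or above 1 CPM. Among annexins, *Anxa11*, *Anxa4*, *Anxa6* and *Anxa7* lay between 19.7 and 30.9 CPM per kilobase. That is below *Anxa2* and *Anxa5* and above *Anxa1* and *Anxa3*. *Anxa9* and *Anxa8* were lower, at 2.52 and 1.07 CPM per kilobase, and *Anxa10* was almost without reads at 0.0215 CPM per kilobase. *Anxa13* was at 0.372 CPM and had no matched length. Among S100 genes, *S100g*, a calbindin of calcium-transporting epithelia, was at 338 CPM per kilobase and *S100a1* at 190.2 CPM per kilobase, to either side of *S100a11*. *S100a16*, *S100a13* and *S100a14* lay between 7.24 and 23.8 CPM per kilobase. *S100b*, *S100a5*, *S100a7a*, *S100z* and *S100a3* lay between 0.0675 and 0.412 CPM per kilobase, under *S100a8* at 0.639. Before division by length, *Anxa10*, *S100z* and *S100a3* were at 0.0380, 0.0423 and 0.0481 CPM, near the lowest listed value of 0.0263 CPM.

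**Figure D3:**
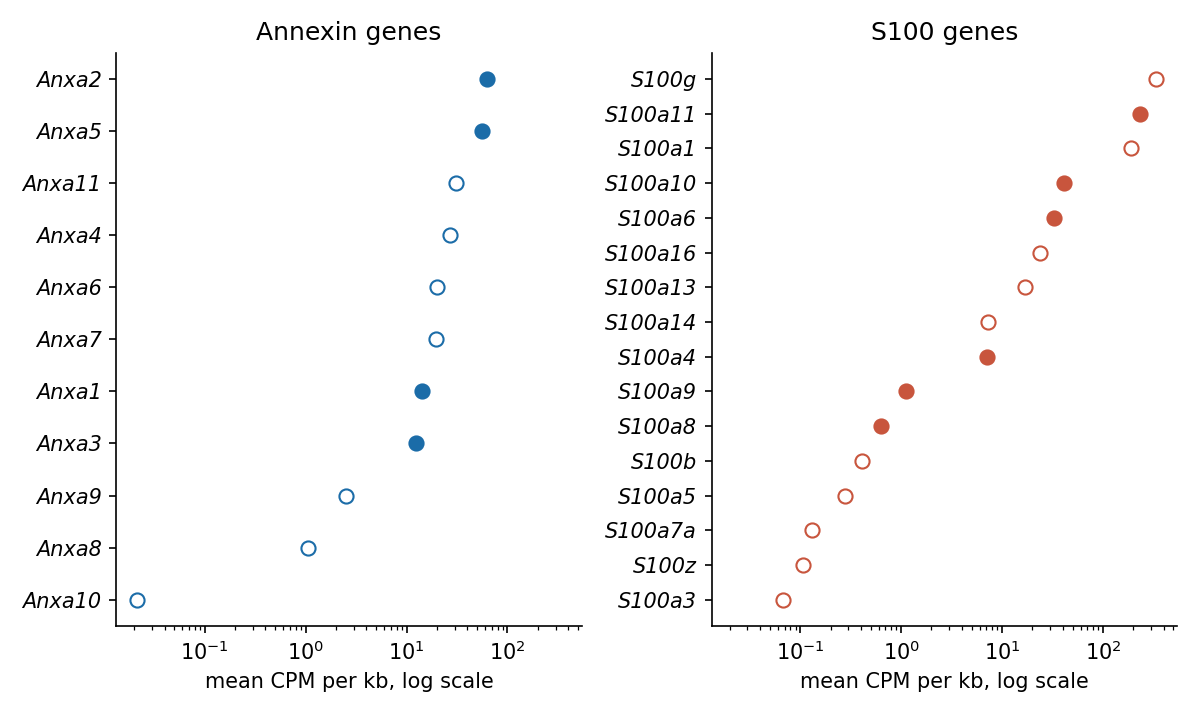
Mean CPM per kilobase of transcript on a log axis for annexin genes (left) and S100 genes (right), with the 10 genes described here as filled points and the other family members as open points. *Anxa2* and *Anxa5* are the highest annexins and *S100a11* the second S100 gene after *S100g*. *Anxa13* had no matched transcript length and is not drawn.

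All 6 S100 genes lie on chromosome 3, as do 7 of the 10 other S100 genes listed here. *S100a4*, *S100a6*, *S100a8* and *S100a9* sit in a run of 11 of these genes that starts with *S100a1* at 90511034 and ends with *S100a9* at 90695721. *S100a11* and *S100a10* form a separate pair, 28793 nucleotides apart, that begins 2824767 nucleotides beyond the end of *S100a9*. Neighbours in the run differed by small or large factors. *S100a8* and *S100a9* were at 0.639 and 1.13 CPM per kilobase, and *S100a13*, *S100a14* and *S100a16* lay between 7.24 and 23.8. Other differences between neighbours were larger. *S100a5*, at 0.278 CPM per kilobase, lies between *S100a4* and *S100a6*, with 1102 nucleotides between its end and the start of *S100a6*, which was at 32.6 CPM per kilobase. *S100a3* lies 1069 nucleotides before *S100a4* and was at 0.0675 CPM per kilobase, against 7.05 for *S100a4*. The *S100a3* level of 0.0481 CPM is near the lowest listed value, 0.0263 CPM. The span of *S100a3* also overlaps *S100a2* and *Gm42674* on the same strand. In the GENCODE annotation *S100a4* overlaps the gene model *Gm42674* on the same strand. Overlap was judged here on whole gene spans, introns included, and whether exons overlap was not examined. *S100a6*, *S100a8*, *S100a9*, *S100a10* and *S100a11* overlap no other gene model. Each of the 4 annexins overlaps at least 1. On the same strand these are *Mir3109* at *Anxa2*, *Gm42603* at *Anxa3* and *Mir7009* at *Anxa5*, and on the opposite strand *1500015L24Rik* at *Anxa1* and *Gm16144* at *Anxa2*. How reads in these stretches were assigned is not given in the sources used here.

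**Figure D4:**
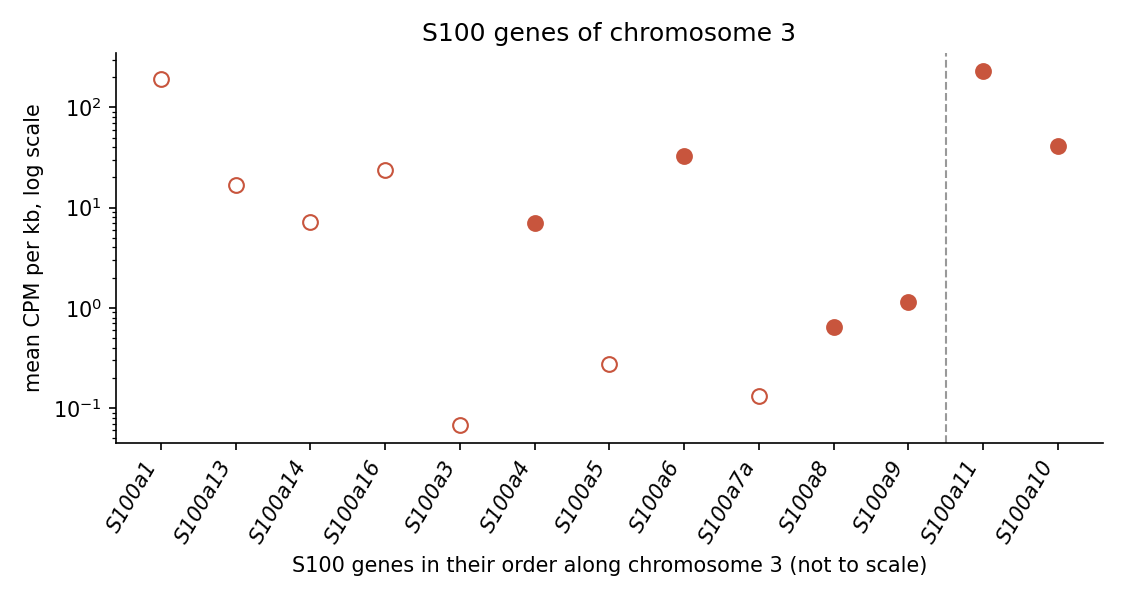
Mean CPM per kilobase (log y axis) of the 13 S100 genes of chromosome 3 that were listed for this report, in their order along the chromosome. The 6 genes described here are filled. *S100a2*, which the annotation also holds there, was not listed. The dashed line marks the gap of 2824767 nucleotides. Levels alternate between neighbours from *S100a3* to *S100a6*, and the pair after the gap, *S100a11* and *S100a10*, is at 231.9 and 41.2.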

How the data were processed

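RNA of 6 kidneys, 3 *Pkd1* F/RC SKO and 3 *Pkd1* F/RC DKO, was read as strand-specific, short single-end reads. The authors trimmed read ends, mapped to mm10 with TopHat 2.0.12 and left out alignments of low mapping quality. The authors' processing notes also name Cufflinks, featureCounts, Subread 1.4.6 and, for the authors' comparison, edgeR 3.2.4. Whether counting used strand is not given in the sources used here.

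The deposited log2 value is the average abundance of a transcript over the libraries, in log2 CPM, as the authors obtained it with edgeR. Mean CPM here is that value taken off the log2 scale. How the libraries were averaged, and whether a small count was added first, is not given in the sources used here. The other columns hold the authors' own log2 fold changes, likelihood ratio statistics and p-values and were not used. The planned quasi-likelihood test of DKO against SKO needs counts of single kidneys and was not run. Depth is unknown, so no interval was set.

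Rows were matched by symbol, 9317 without a symbol were left out, and the row with the highest mean CPM stood for a gene. A percentile is the share of other symbols with a lower level. Lengths were taken from the GENCODE transcripts of GRCm38, the assembly of mm10, tied to the highest RefSeq mRNA row, and were found for 98.1% of 20470 symbols and for all 10 genes. Named genes were the 10 genes, all other listed annexin and S100 genes, partners and receptors, and cell type markers. *Pkd1* and *Mir17hg* were added later. *Adgre1*, listed here as *Emr1*, and *Ly6g* were not found by symbol. Members and lists were chosen with earlier results of these data known. The steps that take the highest row, sum the rows and give the percentile were tested on simulated data. The match of lengths, the values per kilobase and the gene overlaps were not part of that test. Python 3.11.15, numpy 2.4.6, pandas 2.3.3 and matplotlib 3.10.9 were used.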

Additional observations from a re-analysis of the deposited data

How the results depend on the processing

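The number of genes at or above 1 CPM was 8 of 10 whichever row stood for a gene. The median percentile of 83.3 was 73.8 with the rows of each symbol summed, 84.2 with their median, 82.0 with RefSeq mRNA rows only and 72.5 among symbols at or above 1 CPM, which leaves 8 of the genes. Those 8 ran from the 17.0 percentile for *S100a4* to 96.5 for *S100a11*. The ratio of the highest to the lowest gene, 382 in CPM and 363 per kilobase, was 587 with rows summed, because summing put *Anxa2* at 182.2 CPM, above *S100a11*. *S100a6* became 47.8 CPM when summed. Where rows of the same symbol share reads, a sum counts those reads more than once. Whether they do is not given in the sources used here. Of 8470 symbols with several rows and at least 1 CPM, 44.2% had rows that differed by under 0.1 on the log2 scale. No paired analysis was possible because values of single kidneys are not given, and leaving out each replicate, other normalizations and other tests were not run for the same reason. The depth is unknown, so how precisely low levels such as those of *S100a8* and *S100a9* were measured cannot be stated.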
